A study of Mus musculus with 20 samples.

Results

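The subunits of the transcription factor AP-1, with the related factors ATF3 and MAFF, were followed in Hepa1-6 mouse hepatoma cells given TGFβ1. The members were the FOS genes Fos, Fosb, Fosl1 and Fosl2, the JUN genes Jun, Junb and Jund, and Atf3 and Maff. Every probe set that the array annotation maps to one of these symbols and to no other gene was taken, whatever its values, which gave 13 probe sets for the 9 genes, of 45037 probe sets and 18193 genes in all. Fosl1, Fosl2, Jun and Jund had 2 probe sets each, and the other 5 genes had 1.

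Hepa1-6 is an epithelial hepatoma line from the mouse strain C57L, and no animal or human tissue was used. Treated cells received TGFβ1 at 1 ng/ml and RNA was taken after 0, 1, 3, 6 and 10 h, with untreated cells taken at the same times. All cells, treated and untreated, had been washed and moved from serum to medium without growth factors before the start. Each of the 10 groups had 2 arrays, which the labels call biological duplicates, so 20 Affymetrix arrays were compared, and the labels describe the treated 0 h group as equivalent to the untreated one. A single line stands for the hepatocyte here, and whole cultures were measured, so a change in every cell and a larger one in some of the cells cannot be told apart.

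AP-1 is a pair of basic leucine zipper (bZIP) proteins, and a FOS protein has to pair with a JUN protein while JUN proteins can also pair with each other. The pair binds a short DNA element found near many growth, stress and matrix genes. Fos, Fosb, Jun, Junb and Atf3 are known as immediate early genes, whose transcripts can appear and disappear quickly after a signal, and TGFβ acts through SMAD proteins that bind DNA beside AP-1 at some genes.

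The promoters of 4 members are shown because their treatment effects span the range found: Junb and Jun had the largest treatment effects, Fos changed direction, and Atf3 had no effect that passed the test. Each sequence is the 250 bases before the transcription start in the reference mouse genome (RefSeq, GRCm38.p6), read 5′ to 3′ on the gene's own strand; the reference strain is not the strain of these cells. Capitals mark TATAAA and TNACNTCA, an AP-1 or ATF type element, and the binding site of MEF2, a factor known to act on the Jun promoter.
Junb, chr8:84978749-84978998, minus strand: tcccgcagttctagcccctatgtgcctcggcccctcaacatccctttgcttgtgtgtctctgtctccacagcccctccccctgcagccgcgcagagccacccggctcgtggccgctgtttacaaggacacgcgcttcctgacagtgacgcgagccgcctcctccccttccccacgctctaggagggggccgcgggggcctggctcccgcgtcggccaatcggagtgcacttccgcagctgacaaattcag
Jun, chr4:95052223-95052472, minus strand: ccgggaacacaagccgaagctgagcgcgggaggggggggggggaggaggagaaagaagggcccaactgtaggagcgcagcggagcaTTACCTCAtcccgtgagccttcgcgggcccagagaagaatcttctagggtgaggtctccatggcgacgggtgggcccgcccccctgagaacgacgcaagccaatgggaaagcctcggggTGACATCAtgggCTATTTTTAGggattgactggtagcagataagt
Fos, chr12:85473640-85473889, plus strand: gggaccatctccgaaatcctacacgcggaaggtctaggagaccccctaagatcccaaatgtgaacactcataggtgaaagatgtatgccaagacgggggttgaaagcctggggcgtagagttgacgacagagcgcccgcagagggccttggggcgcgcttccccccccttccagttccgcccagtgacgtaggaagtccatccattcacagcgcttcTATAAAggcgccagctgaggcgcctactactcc
Atf3, chr1:191183334-191183583, minus strand: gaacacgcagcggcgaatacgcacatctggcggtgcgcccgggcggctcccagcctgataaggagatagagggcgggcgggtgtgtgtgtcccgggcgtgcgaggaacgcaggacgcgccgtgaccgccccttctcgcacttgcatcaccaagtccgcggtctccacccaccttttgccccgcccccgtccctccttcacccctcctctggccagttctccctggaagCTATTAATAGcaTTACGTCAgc

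In Jun, TNACNTCA stood at positions -164 to -157 and -45 to -38 from the start, and a MEF2 site at -33 to -24. Atf3 held a MEF2 site at -22 to -13 and TNACNTCA at -10 to -3, while Fos held TATAAA at -33 to -28. Junb had no match before the start, and its TATAAA was the first 6 bases after it, from 1 to 6.

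Windows of 300 bases, 250 before the start and 50 after it, were given for 8 of the 9 members, with 10 windows in all because Maff had 3; Fosl1 was not looked at. Both strands were searched for 7 motifs, and a match is a description of letters, not of binding; the letters were chosen with these sequences in view. TNACNTCA was in 5 windows of 4 members, Jun, Jund, Atf3 and Maff, against 16.2% of all 32544 promoter windows. The MEF2 site was in windows of Jun and Atf3, against 3.16% of all windows. TATAAA was in those of Fos and Junb, against 13.6%.

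The remaining motifs had few or no matches in the members. For the rarer ones, 10 windows would hold few or none at the shares over all windows. TGANTCA, the classical AP-1 element, was in no member's window and in 7.79% of all windows. The SMAD element GTCTAGAC was in none, against 0.215%, and the serum response element core known as the CArG box was in none, against 1.64%. Bases farther than 250 before the start were not searched, so a CArG box farther upstream, in Fos or another member, would be missed. The shorter SMAD form CAGAC, which shares the letters AGAC with GTCTAGAC, was in a Maff window and in 49.5% of all windows. The plot of motif positions sets these matches side by side.

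**Figure D1:**
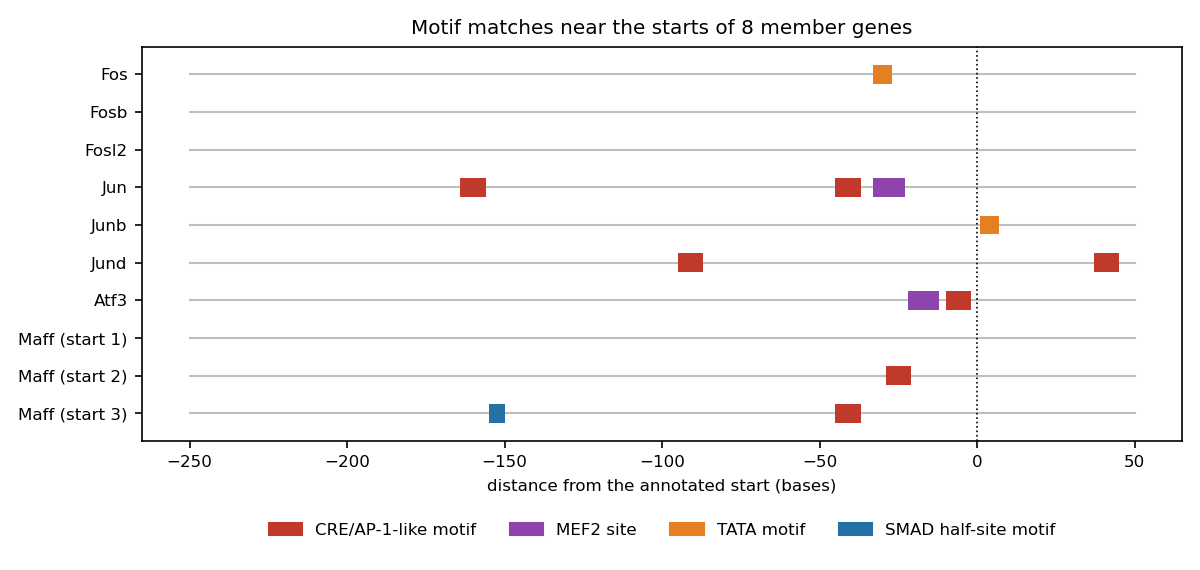
Motif matches in the promoter windows of the 8 members with a window, drawn by distance from the transcription start in bases (x axis), 1 row per window, with coloured marks for the motifs searched; the CRE/AP-1-like motif of the key is the one spelled TNACNTCA above, and the SMAD half-site is the shorter SMAD form. Jun and Atf3 carry both a MEF2 site and TNACNTCA close to the start, the Fos mark lies shortly before it, and the Junb mark lies just after it.

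The arrays were alike in level. The lowest deposited log2 value was 1.44 and the highest 14.7, the medians of the arrays lay between 5.15 and 5.21, and duplicates correlated at 0.996 to 0.997 over all probe sets. Of 9 measured hepatocyte and hepatoma markers, 8 lay above the array median on every array, Alb at 11.72 to 12.46 and Afp at 12.41 to 12.99 among them. Apob, at 4.47 to 5.50, was the exception. Of the other cell types' markers, 0 of 4 for leucocytes and 0 of 3 for endothelial cells lay above the array median on every array, against 1 of 5 for stellate cells (Des) and 3 of 3 for cholangiocytes (Krt7, Krt19 and Epcam). Below it on every array were 1 of 4 for leucocytes, 2 of 3 for endothelial cells and 0 of 5 for stellate cells. Smad7, a direct SMAD target that checks the treatment, was 2.45 ± 0.07 higher in log2 (SE) in treated cells at 1 h, 1.49 at 3 h, 1.10 at 6 h and 0.42 at 10 h, and differed by -0.04 at 0 h.

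Treatment effects below are differences of log2 means, TGFβ1-treated minus untreated cells at the same time, with the standard error (SE) from a limma fit over all 20 arrays. A member was called when its p-value, adjusted by the Benjamini-Hochberg method over all 45037 probe sets, was under 0.05. Of the 13 member probe sets, 7 were higher and 0 lower in treated cells at 1 h, when 1.3% of all probe sets were higher and 0.169% lower. At 3 h 5 were higher and 2 lower, against 4.49% and 4.54% of all probe sets. At 6 h 4 were higher and 2 lower, against 4.84% and 4.12%.

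By 10 h, 3 member probe sets were higher and 1 was lower in treated cells, against 2.65% and 1.92% of all probe sets. The median difference of the 13 was 0.72 at 1 h, 0.24 at 3 h, 0.04 at 6 h and 0.12 at 10 h, and that of all probe sets lay between -0.0159 and -0.0008 at these times. Fos, Fosl1, Fosl2, Jun, Junb and Maff were the 6 genes called at 1 h. Fosb, Jund and Atf3 were called at no time after treatment. Without treated 10 h replicate 2, or either untreated 10 h array, 2 probe sets were called at 10 h in place of 4. At 0 h none of the 13 was called and none of the whole table, in which 1912 probe sets had an unadjusted p under 0.05.

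**Figure D2:**
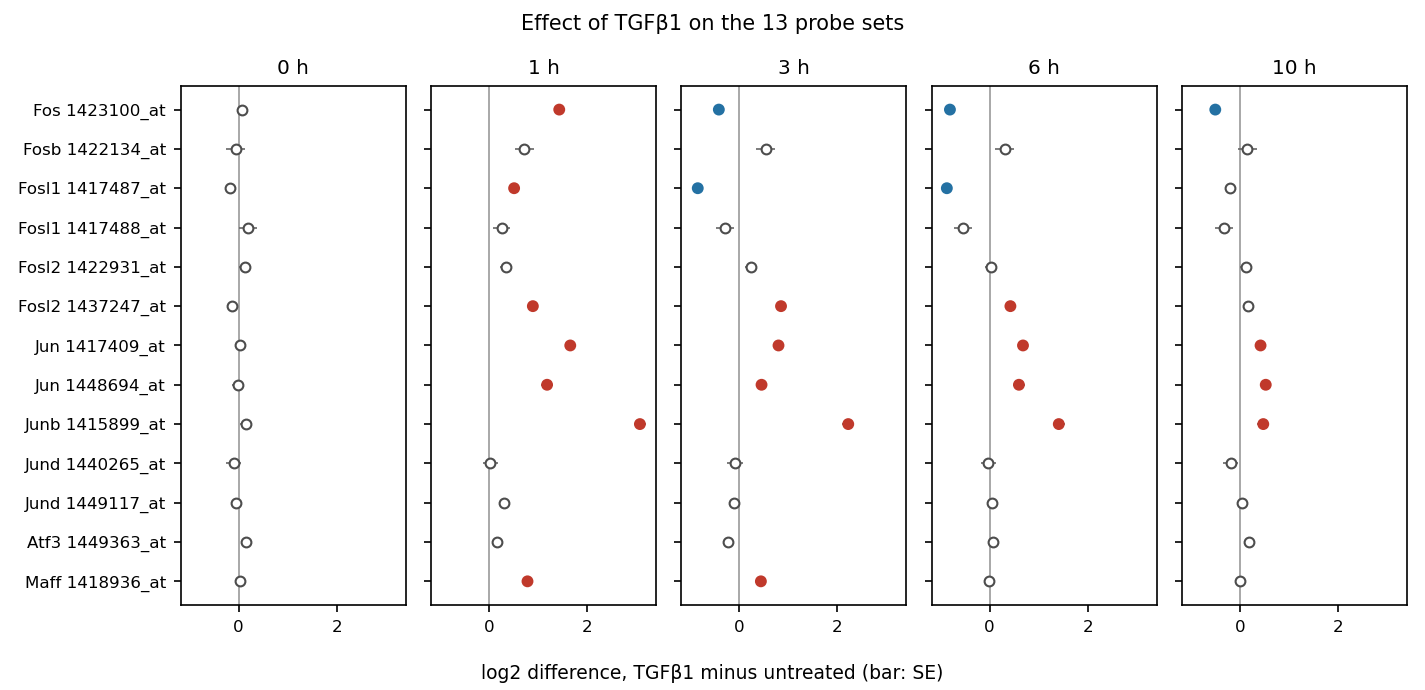
Treatment effect in log2, TGFβ1-treated minus untreated cells (x axis), for each of the 13 member probe sets (rows), with 1 panel per time and bars of 1 SE, some smaller than the points; filled points passed the adjusted threshold, red where treated cells were higher and blue where they were lower. Junb and Jun at 1417409_at lie farthest right at 1 h, Fos and Fosl1 at 1417487_at lie left of 0 at 3 h, and Atf3, Fosb and Jund hold no filled point.

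Junb, a JUN subunit that often opposes Jun in growth control, showed the largest effect of the members. In treated cells its 2 arrays had log2 values of 6.46 and 6.73 at 0 h, 9.67 and 9.51 at 1 h, 9.04 and 8.96 at 3 h, 8.36 and 8.42 at 6 h, and 7.60 and 7.60 at 10 h. In untreated cells they had 6.42 and 6.47 at 0 h, 6.44 and 6.58 at 1 h, 6.55 and 7.01 at 3 h, 7.07 and 6.90 at 6 h, and 7.16 and 7.09 at 10 h. From 1 h on, both treated arrays lay above both untreated ones at every time, and treated cells came down step by step while untreated cells drifted up.

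The Junb effect was 3.08 ± 0.12 at 1 h, an 8.43-fold difference (limma, adjusted p = 8.02e-13). It was 2.22 at 3 h (adjusted p = 7.89e-11), 1.41 at 6 h (adjusted p = 6.58e-08) and then 0.48 at 10 h (adjusted p = 0.0246). Each step down was itself tested: the effect fell by 0.86 ± 0.17 between 1 and 3 h (adjusted p = 0.00506), by 0.81 between 3 and 6 h (adjusted p = 0.0155) and by 0.93 between 6 and 10 h (adjusted p = 0.00676). Without the variance trend in the fit the last 2 steps and the 10 h effect missed the threshold (adjusted p = 0.0786, 0.0546 and 0.0833). The 10 h call was lost without any one of the 4 arrays compared, at adjusted p = 0.155 and 0.124 without treated replicates 1 and 2 and 0.0989 and 0.187 without untreated replicates 1 and 2. The step from 3 to 6 h was lost without replicate 1 of any of its 4 groups, at adjusted p = 0.0690 and 0.0649 for the treated 3 and 6 h arrays and 0.0955 and 0.0696 for the untreated ones.

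Jun, the main JUN subunit and a target of its own protein, moved in the same direction at both of its probe sets. At 1417409_at treated cells had 7.87 and 8.02 at 0 h, 9.45 and 9.45 at 1 h, 8.99 and 9.06 at 3 h, 8.80 and 8.89 at 6 h, and 8.81 and 8.72 at 10 h. Untreated cells had 7.86 and 7.98 at 0 h, 7.81 and 7.78 at 1 h, 8.18 and 8.27 at 3 h, 8.14 and 8.19 at 6 h, and 8.31 and 8.38 at 10 h. The groups were apart at every time after 0 h, most at 1 h.

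The Jun effect at 1417409_at was 1.66 ± 0.07 at 1 h, 3.15-fold (adjusted p = 3.74e-12), and then 0.80 at 3 h, 0.68 at 6 h and 0.42 at 10 h, the last with adjusted p = 0.00104. It fell by 0.86 ± 0.10 between 1 and 3 h (adjusted p = 2.38e-05), and its later steps, -0.12 and -0.26, did not pass (adjusted p = 0.735 and 0.404). At 1448694_at the effect was 1.18 ± 0.12 at 1 h, 2.27-fold (adjusted p = 1.35e-06), 0.45 at 3 h (adjusted p = 0.0156), 0.60 at 6 h (adjusted p = 0.00173) and then 0.53 at 10 h (adjusted p = 0.00993).

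That second Jun probe set rested on single arrays at 2 times. Its 3 h call was lost without treated replicate 1 or 2 (adjusted p = 0.103 and 0.0647) or untreated replicate 1 (adjusted p = 0.220), and its 10 h call without treated replicate 2 or untreated replicate 1 (adjusted p = 0.132 and 0.249). Its step between 1 and 3 h, -0.73 ± 0.17 (adjusted p = 0.0148), was lost without replicate 2 of the treated 1 h, treated 3 h or untreated 3 h arrays (adjusted p = 0.0631, 0.0618 and 0.101). The promoters printed for Jun and Atf3 were the ones that held both TNACNTCA and a MEF2 site.

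Jund, the JUN subunit usually present without a stimulus, was not called at any time after treatment. Its probe set 1449117_at was bright, with log2 values of 10.6 to 11.2 over the 20 arrays, and at 1 h treated cells had 11.05 and 10.93 against 10.78 and 10.60 in untreated cells. Those arrays did not overlap, but the difference of 0.30 (95% interval 0.10 to 0.50) had an adjusted p of 0.227. Replicate 1 was the higher array in every group at this probe set. With the replicate number as a block in the limma fit, the 1 h difference passed (adjusted p = 0.00514). At 3, 6 and 10 h the differences at 1449117_at lay between -0.11 and 0.05 and the arrays of the groups overlapped. Jund's other probe set, 1440265_at, lay below the array median on every array and had no call.

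Fos, the founding member of the FOS genes, changed the direction of its effect. Treated cells had 6.64 and 6.95 at 0 h, 8.14 and 8.18 at 1 h, 6.66 and 6.51 at 3 h, 6.69 and 6.58 at 6 h, and 7.13 and 7.10 at 10 h. Untreated cells had 6.75 and 6.72 at 0 h, 6.70 and 6.76 at 1 h, 7.02 and 6.99 at 3 h, 7.42 and 7.46 at 6 h, and 7.58 and 7.66 at 10 h. Both treated arrays were above both untreated ones at 1 h and below them at 3, 6 and 10 h.

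The Fos effect was 1.43 ± 0.10 at 1 h, 2.70-fold higher in treated cells (adjusted p = 5.06e-09). It was -0.42 at 3 h (adjusted p = 0.00741), -0.81 at 6 h, 1.75-fold lower (adjusted p = 7.33e-06), and -0.50 at 10 h (adjusted p = 0.00316). Between 1 and 3 h the effect fell by 1.85 ± 0.14 (adjusted p = 6.37e-08). Without treated replicate 2 or untreated replicate 1 the 3 h call was lost (adjusted p = 0.105 and 0.0641), and without untreated replicate 2 the 10 h call was (adjusted p = 0.0547).

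The later Fos differences lay beside a climb in untreated cells, where Fos at 6 h was 0.71 above its 0 h level (adjusted p = 4.76e-05) and at 10 h 0.88 above it (adjusted p = 1.72e-06). Set against the untreated arrays at 0 h, treated cells differed by -0.15 at 3 h (adjusted p = 0.438) and then -0.10 at 6 h (adjusted p = 0.638). At 10 h they were 0.38 above them (adjusted p = 0.0083).

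Fosl1, a FOS subunit known as FRA1 that lacks the transactivation domain of Fos, followed a course like that of Fos at 1417487_at. Treated cells had 6.78 and 6.91 at 0 h, 7.48 and 7.51 at 1 h, 6.48 and 6.59 at 3 h, 6.59 and 6.84 at 6 h, and 7.40 and 7.12 at 10 h. Untreated cells had 7.02 and 7.02 at 0 h, 6.96 and 7.01 at 1 h, 7.37 and 7.40 at 3 h, 7.63 and 7.55 at 6 h, and 7.43 and 7.48 at 10 h. Treated arrays were the higher ones at 1 h and the lower ones at every other time, 0 h included.

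The Fosl1 effect was 0.51 ± 0.10 at 1 h, 1.43-fold (adjusted p = 0.00643), then -0.85 at 3 h, 1.80-fold lower (adjusted p = 5.83e-06), and -0.87 at 6 h, 1.83-fold lower (adjusted p = 4.39e-06). At 10 h it was -0.19 (95% interval -0.40 to 0.02, adjusted p = 0.425). It fell by 1.36 ± 0.14 between 1 and 3 h (adjusted p = 5.41e-06), and was 0.68 higher at 10 h than at 6 h (adjusted p = 0.0204). The 1 h call was lost without treated replicate 2 or untreated replicate 1 (adjusted p = 0.0802 and 0.0796). The change from 6 to 10 h was lost without replicate 1 of the treated 6 h, treated 10 h, untreated 6 h or untreated 10 h arrays (adjusted p = 0.137, 0.1395, 0.0899 and 0.104) and without untreated 10 h replicate 2 (adjusted p = 0.0708).

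Against the untreated arrays at 0 h, Fosl1 in treated cells was at -0.48 at 3 h (adjusted p = 0.0028) and then -0.31 at 6 h (adjusted p = 0.0479). The treated arrays at 0 h were themselves at -0.18 against these, a difference that was not called, so both values depend on which 0 h arrays are used. Fosl1's other probe set, 1417488_at, was dim, above the array median on 8 of 20 arrays. That probe set had differences of 0.26 at 1 h, -0.29 at 3 h, -0.54 at 6 h and -0.32 at 10 h, none called (lowest adjusted p = 0.0728), with the same signs as 1417487_at at all 4 times.

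Fosl2, the FOS subunit known as FRA2, was called higher in treated cells at 1, 3 and 6 h at its probe set 1437247_at. At 1437247_at treated cells had 8.12 and 8.30 at 0 h, 9.25 and 9.31 at 1 h, 9.70 and 9.64 at 3 h, 9.37 and 9.41 at 6 h, and 9.52 and 9.47 at 10 h. Untreated cells had 8.24 and 8.45 at 0 h, 8.41 and 8.36 at 1 h, 8.80 and 8.84 at 3 h, 9.07 and 8.87 at 6 h, and 9.36 and 9.32 at 10 h. From 1 h on the treated arrays were above the untreated ones, and the gap was smaller at 6 and 10 h than at 1 and 3 h.

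The Fosl2 effect at 1437247_at was 0.89 ± 0.08 at 1 h, 1.86-fold (adjusted p = 2.34e-07), and then 0.85 at 3 h, 1.80-fold (adjusted p = 1.84e-07). It was 0.42 at 6 h (adjusted p = 0.00100) and then 0.16 at 10 h (95% interval -0.01 to 0.32, adjusted p = 0.390). Its change between 1 and 3 h was -0.04 ± 0.11 (95% interval -0.28 to 0.19, adjusted p = 0.941), and that between 3 and 6 h was -0.43 (adjusted p = 0.0548). Fosl2's second probe set, 1422931_at, had differences of 0.34, 0.24, 0.02 and 0.12 at 1, 3, 6 and 10 h, none called (lowest adjusted p = 0.291), so the 2 probe sets gave different calls.

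Fosb, the FOS subunit best known from neurons, lay below the array median on all 20 arrays. At 1 h treated cells had 4.40 and 4.73 against 3.85 and 3.83 in untreated cells, and at 3 h 4.30 and 4.12 against 3.87 and 3.47. Both treated arrays were the higher ones at 1, 3 and 6 h. The difference of 0.72 ± 0.19 at 1 h (95% interval 0.32 to 1.13) had an adjusted p of 0.0862, and those at 3, 6 and 10 h were 0.54, 0.31 and 0.15 (lowest adjusted p = 0.103).

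Atf3, a stress-induced bZIP factor that pairs with JUN proteins, had no treatment effect that passed the test. Treated cells had 7.52 and 7.56 at 0 h, 7.77 and 7.76 at 1 h, 7.63 and 7.66 at 3 h, 7.94 and 7.81 at 6 h, and 8.15 and 8.12 at 10 h. Untreated cells had 7.36 and 7.43 at 0 h, 7.61 and 7.58 at 1 h, 7.84 and 7.90 at 3 h, 7.82 and 7.81 at 6 h, and 7.93 and 7.96 at 10 h. Treated arrays were above untreated ones at 0, 1 and 10 h and below them at 3 h, so the gap at 1 h was also there before treatment.

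The Atf3 difference was 0.14 ± 0.07 at 0 h, 0.17 at 1 h (adjusted p = 0.498), -0.23 at 3 h (adjusted p = 0.0514), 0.06 at 6 h (adjusted p = 0.755) and then 0.19 at 10 h (adjusted p = 0.180). The intervals ran from -0.37 at their lowest, at 3 h, to 0.34 at their highest, at 10 h, so a doubling of the transcript lay outside them at each time. The difference fell by 0.39 ± 0.10 between 1 and 3 h (adjusted p = 0.0322), and this call was lost without any one of the 8 arrays it rests on (adjusted p = 0.0608 to 0.139). At 3 h the lower level in treated cells passed the threshold when the arrays were further quantile normalised (adjusted p = 0.0422), with probe sets above the median level alone (adjusted p = 0.0222) or with 1 probe set per gene (adjusted p = 0.0282).

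Maff is a small MAF protein, a bZIP factor without a transactivation domain that pairs with itself or with CNC factors such as NFE2L2. Treated cells had 8.27 and 8.15 at 0 h, 8.97 and 8.90 at 1 h, 8.81 and 8.88 at 3 h, 8.85 and 8.84 at 6 h, and 9.05 and 9.09 at 10 h. Untreated cells had 8.21 and 8.14 at 0 h, 8.16 and 8.14 at 1 h, 8.45 and 8.36 at 3 h, 8.86 and 8.85 at 6 h, and 9.09 and 9.03 at 10 h. Treated cells were higher at 1 and 3 h, and at 6 and 10 h the arrays of the groups overlapped.

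The Maff effect was 0.78 ± 0.06 at 1 h, 1.72-fold (adjusted p = 7.99e-08), and then 0.44 at 3 h, 1.36-fold (adjusted p = 6.95e-05). It was -0.01 at 6 h (95% interval -0.14 to 0.13) and 0.01 at 10 h (95% interval -0.13 to 0.14). It fell by 0.34 ± 0.09 between 1 and 3 h (adjusted p = 0.0411), a call lost without any one of its 8 arrays (adjusted p = 0.0516 to 0.202). It fell by 0.45 between 3 and 6 h (adjusted p = 0.0120), a call lost without treated or untreated 3 h replicate 2 (adjusted p = 0.0593 and 0.0680).

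**Figure D3:**
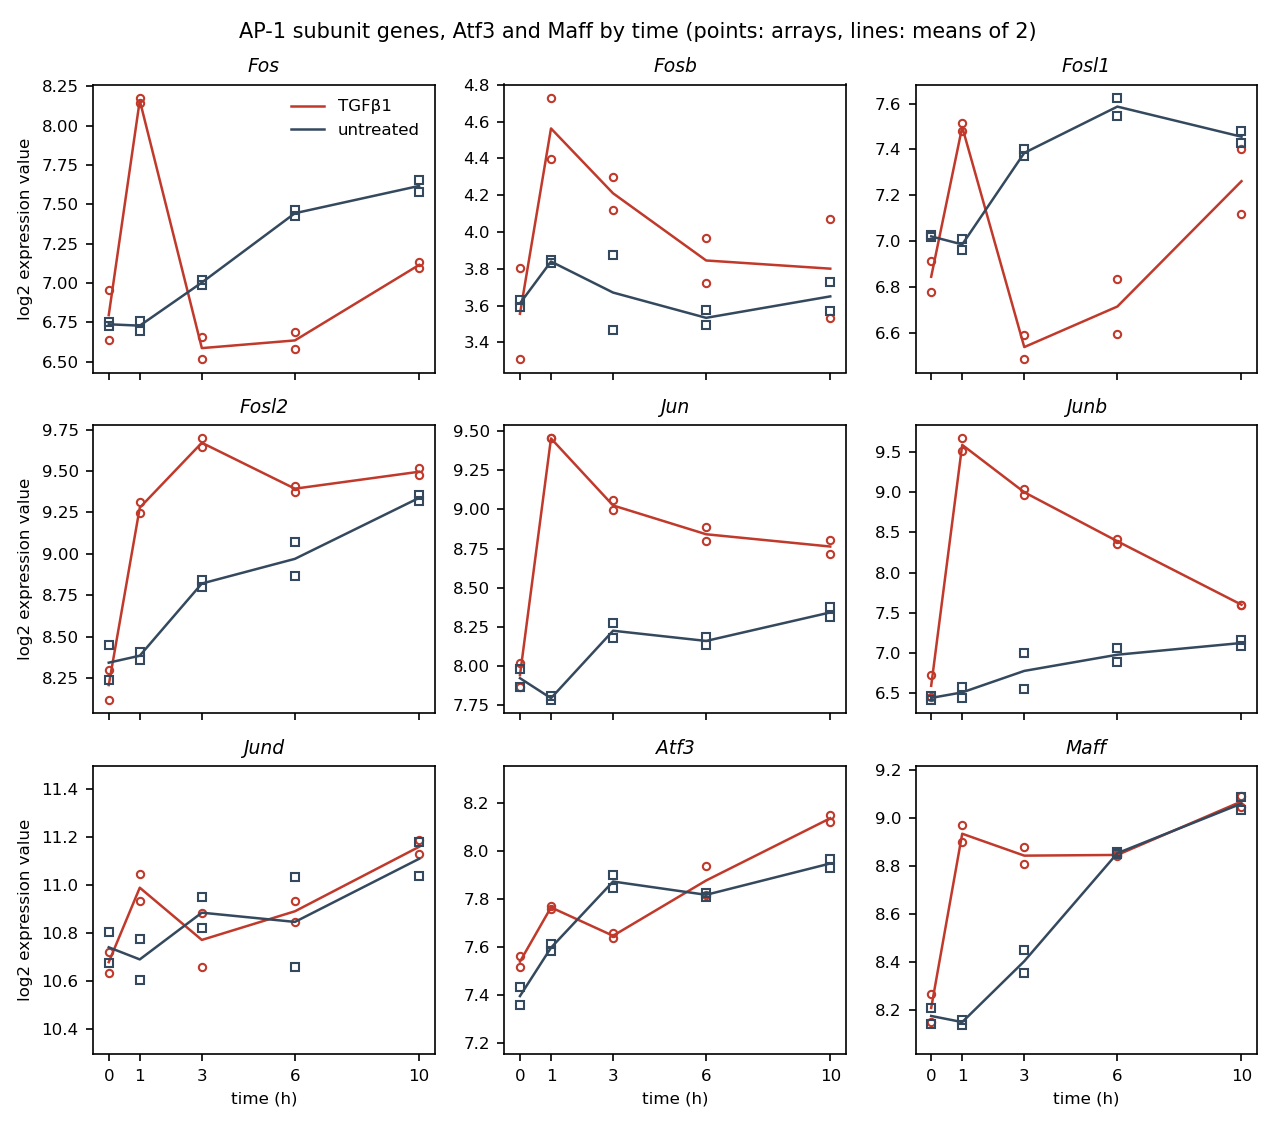
Log2 value on each of the 20 arrays (y axis) by time in hours (x axis) for 1 probe set of each of the 9 members, treated arrays as red circles and untreated arrays as dark squares, with lines through the group means and a y axis of its own in each panel. The treated lines of Junb, Jun, Fosl2 and Maff stand above the untreated ones at 1 and 3 h, those of Fos and Fosl1 cross, and the untreated lines of most members climb from 3 h.

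Between 1 and 3 h the treatment effect of 7 member probe sets, of Fos, Fosl1, Jun, Junb, Atf3 and Maff, fell and that of 0 was larger, against 1.89% and 1.21% of all probe sets. This count was 4 without replicate 2 of the treated 1 h, treated 3 h or untreated 3 h arrays. Between 3 and 6 h it fell at 2, Junb and Maff, and was larger at 0, against 0.762% and 1.11%. Between 6 and 10 h it fell at 1, Junb, and was larger at 1, Fosl1, against 0.593% and 0.433%. The changes over neighbouring intervals share the arrays of the time between them, and each effect shares its untreated arrays with the untreated course.

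Untreated cells also changed with time, and the effects of the medium and of time cannot be told apart. No member was called in untreated cells at 1 h against 0 h, when 0.0133% of all probe sets were higher and 0.00888% lower. At 3 h 3 member probe sets were higher than at 0 h, against 1.93% of all, and at 6 h 8 were, against 5.52%. At 10 h 8 were higher, against 7.5%. None of the 13 was lower at 3, 6 or 10 h, when 1.49%, 7.45% and 9.17% of all probe sets were, shares at which 13 probe sets would hold few lower calls. The median over the 13 at 10 h was 0.43, against 0.01 for all probe sets.

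At 3 h these were Atf3, at 0.48 ± 0.07 (adjusted p = 4.14e-04), Fosl2, at 0.48 ± 0.08 (adjusted p = 0.00123), and Jun at 1417409_at, at 0.30 (adjusted p = 0.0218). At 10 h the largest rises were those of Fosl2, 1.00 ± 0.08 (adjusted p = 2.54e-08), and of Maff and Fos, 0.88 each (adjusted p = 8.46e-09 and 1.72e-06). Junb rose by 0.68 (adjusted p = 3.28e-04), Atf3 by 0.55 (adjusted p = 9.73e-06), Fosl1 by 0.43 (adjusted p = 0.00404), Jun by 0.42 (adjusted p = 2.54e-04) and Jund by 0.37 (adjusted p = 0.0102). Fosb was at 0.04 (adjusted p = 0.946).

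Several of these calls rested on single arrays, and without untreated 6 h replicate 1 the count at 6 h was 5. Jun's was lost at 3 h without untreated 0 h replicate 1 or either 3 h array (adjusted p = 0.212, 0.0582 and 0.233), and at 6 h without untreated 0 h replicate 1 or either 6 h array (adjusted p = 0.266, 0.0703 and 0.182). Those of Jund at 10 h without untreated 0 h replicate 2 or 10 h replicate 1 were lost too (adjusted p = 0.118 and 0.133), as were those at 6 h of Fosl1's 1417488_at without 0 h replicate 2 or 6 h replicate 1 (adjusted p = 0.0723 and 0.0698) and of Junb without 6 h replicate 1 (adjusted p = 0.0567).

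Some later calls depended on which untreated arrays treated cells were set against. Against the untreated arrays at 0 h, treated cells at 10 h had 8 of the 13 probe sets higher and 0 lower, with 8.92% and 8.99% of all probe sets, where the untreated arrays at 10 h gave 3 higher and 1 lower. Atf3 was then 0.25 higher at 3 h (adjusted p = 0.0259), 0.48 at 6 h (adjusted p = 4.94e-05) and then 0.74 at 10 h (adjusted p = 1.81e-07). The treated Atf3 arrays at 0 h already lay 0.14 above the same untreated arrays, a difference that was not called. Maff was 0.67 higher at 6 h (adjusted p = 2.17e-07) and then 0.89 at 10 h (adjusted p = 4.66e-09). The effects of Junb and Jun (both probe sets) at 1, 3, 6 and 10 h were called in the same direction against either comparator. So were those of Fosl2 (1437247_at) and Fosl1 (1417487_at) at 1, 3 and 6 h, and of Maff at 1 and 3 h. For Fos this held at 1 h only.

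The members' courses over the 10 group means gave pairs that ran close together, as a description over means that share arrays and a common time course. Pearson's r was 0.97 for Jun and Junb, 0.92 for Fosl2 and Maff, and 0.82 for Fos and Fosl1. Jund had 0.88 with Atf3 and 0.82 with Maff, and Fosl2 had 0.82 with Jun. Fosl1 with Jun had -0.01 and Fosl1 with Junb -0.14. Fosb, dim as it was, had 0.89 with Junb and 0.84 with Jun. Among 1877 named genes whose group means had a standard deviation of at least 0.25, the closest to Fos was Hbegf, an EGF receptor ligand, at 0.96, followed by Sertad1 at 0.95 and Id3 at 0.94.

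Closest to Junb were Bhlhe40 at 0.99, Pdgfb at 0.98 and Ccn1 at 0.98. For Jun they were Bcl2l11 at 0.98 and Pim1 and Ccn1 at 0.97 each. Those of Maff were Efna1 at 0.99, Kdm7a at 0.96 and Ier3 at 0.95, and those of Fosl2 were Micall1 at 0.97 and Ddit4 and Tcim at 0.95 each. Fosl1 had Zfp36, which binds and destabilises short-lived transcripts, at 0.94, Plekhh3 at 0.88 and Cytip at 0.87.

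Other bZIP genes, some of whose proteins can pair with the members, changed in both directions. Of 27 listed, 25 were analysed here, each by its highest probe set of 1 gene. At 1 h 3 were higher and 1 lower in treated cells, against 1.78% and 0.264% of all genes. At 3 h 4 were higher and 4 lower, against 5.8% and 7.16%, and at 6 h 4 and 2, against 6.73% and 6.6%. At 10 h 2 were higher and 1 lower, against 3.88% and 3.2%. The median of the 25 was 0.02, 0.01, -0.06 and 0.01 at 1, 3, 6 and 10 h, with medians over all genes between -0.026 and -0.003.

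The bZIP genes higher at 1 h were Cebpb, a liver acute-phase factor, at 0.76 ± 0.05 (adjusted p = 7.55e-09), Mafk, a small MAF like Maff, at 0.89 (adjusted p = 2.41e-06), and Jdp2, which represses AP-1, at 0.44 (adjusted p = 0.00143). The 1 lower was Nfe2l2, the NRF2 factor that pairs with small MAF proteins, at -0.18 (adjusted p = 0.0178), named here after its value was seen. At 3 h Bach2, a repressor that also pairs with small MAF proteins, was 2.86-fold higher (adjusted p = 1.15e-08), and Ddit3, the stress factor CHOP, was 1.67-fold lower (adjusted p = 1.59e-07). Cebpb was still 0.56 higher (adjusted p = 2.95e-07).

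Ddit3 was at -0.58 at 6 h (adjusted p = 4.81e-06), while Bach1 was 0.43 higher (adjusted p = 1.36e-04) and Maf 0.42 higher (adjusted p = 7.54e-04). At 10 h Ddit3 was at -0.41 (adjusted p = 6.82e-04), Bach1 at 0.28 (adjusted p = 0.0168) and Cebpb at 0.20 (adjusted p = 0.0305). The Bach1 call at 10 h was lost without treated replicate 1 or either untreated array (adjusted p = 0.234, 0.125 and 0.0998). That of Cebpb was lost without any one of the 4 arrays (adjusted p = 0.178 and 0.143 without the treated ones, 0.0571 and 0.313 without the untreated ones).

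Kinases and factors known to act upstream of the AP-1 genes were called in small numbers at each time. Of 26 listed, 22 were analysed here. Higher and lower were 2 and 0 at 1 h, against 1.78% and 0.264% of all genes, and 4 and 1 at 3 h, against 5.8% and 7.16%. They were 3 and 0 at 6 h, against 6.73% and 6.6%, and 2 and 1 at 10 h, against 3.88% and 3.2%, and the medians of the 22 were 0.03, 0.09, 0.015 and 0.07 at 1, 3, 6 and 10 h. Elk3, a ternary complex factor that binds DNA with SRF, was 0.29 higher at 1 h (adjusted p = 0.00784), 1.18 higher at 3 h, 2.27-fold (adjusted p = 2.23e-11), 0.90 at 6 h (adjusted p = 1.42e-09) and then 0.28 at 10 h (adjusted p = 0.00665).

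Map2k3, a kinase of the p38 pathway, was 0.34 higher at 1 h (adjusted p = 9.11e-04) and then 0.32 at 3 h (adjusted p = 4.37e-04), and at -0.26 at 10 h (adjusted p = 0.00788). Mef2a, a MEF2 factor, was 0.33 higher at 3 h (adjusted p = 0.00292), and Mef2d 0.26 higher at 10 h (adjusted p = 0.0419). Mapk8, which encodes the JUN kinase JNK1, was 0.34 higher at 6 h (adjusted p = 0.00436), and Elk4, a relative of Elk3, 0.27 higher (adjusted p = 0.00372). These are transcript levels, and kinase activity was not measured.

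Calls of this group that single arrays ended were those of Elk3 at 1 h without treated replicate 1 or 2 or untreated replicate 2 (adjusted p = 0.0520, 0.0958 and 0.0927), Mapk8 at 6 h without treated replicate 1 (adjusted p = 0.0740) and Elk4 at 6 h without untreated replicate 2 (adjusted p = 0.0546). At 10 h those of Elk3 and Map2k3 were lost without treated replicate 1 (adjusted p = 0.163 and 0.142) or untreated replicate 1 (adjusted p = 0.0920 and 0.130). Mef2d was lost without any one of the 4 arrays (adjusted p = 0.186, 0.204, 0.277 and 0.128).

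Of 29 listed genes known as AP-1 targets, 26 were analysed here. At 1 h 5 were higher and 0 lower in treated cells, against 1.78% and 0.264% of all genes, and at 3 h 7 and 4, against 5.8% and 7.16%. At 6 h 6 were higher and 3 lower, against 6.73% and 6.6%, and at 10 h 4 and 1, against 3.88% and 3.2%. Their medians were 0.06, 0.07, 0.11 and 0.04. Dusp1, a phosphatase that switches off MAP kinases, was 2.46-fold higher at 1 h (adjusted p = 7.74e-10), and Plaur, the urokinase receptor, 1.26-fold (adjusted p = 0.00756). The Plaur call was lost without treated or untreated replicate 2 (adjusted p = 0.108 and 0.101). The list was drawn up from knowledge of other cells, and binding of AP-1 to these genes was not measured here.

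Hbegf crossed between 1 and 3 h as Fos did, but unlike Fos was not called at 10 h. It averaged 11.03 in treated and 9.94 in untreated cells at 1 h, 2.13-fold higher (adjusted p = 3.81e-12), 9.57 in treated and 10.12 in untreated cells at 3 h, 1.47-fold lower (adjusted p = 7.39e-08), and 9.76 in treated and 10.25 in untreated cells at 6 h, 1.41-fold lower (adjusted p = 3.73e-07). Against the untreated arrays at 0 h, Hbegf in treated cells at 6 h was at -0.13 (adjusted p = 0.0765). Ccl2, a chemokine for monocytes, was 3.59-fold higher at 3 h (adjusted p = 9.62e-09) and then 2.18-fold at 6 h (adjusted p = 1.03e-05). Gclm, of glutathione synthesis, was 1.41-fold higher at 3 h (adjusted p = 1.25e-07).

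The mesenchymal filament gene Vim was 1.30-fold higher at 6 h (adjusted p = 3.79e-06) and then 1.21-fold at 10 h (adjusted p = 4.45e-04). Mmp14, a membrane-bound matrix protease, was 1.27-fold higher at 10 h (adjusted p = 1.50e-04). Nqo1, a quinone reductase regulated by Nfe2l2, was 1.47-fold lower at 10 h (adjusted p = 8.18e-06).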

How the data were processed

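RNA of 20 samples was hybridised to Affymetrix arrays, and the authors deposited 1 log2 value per probe set and array, made with RMA per the submitters' processing notes; for the RMA version, the probe set definition and the build the entry is: not given in the sources used here. This method brings arrays to 1 distribution, so a shift shared by most transcripts would be removed, and it compresses differences of dim probe sets. From these values differences were fitted with limma 3.58.1 in R 4.3.3, with 1 mean per group (10 residual degrees of freedom), a variance trend and p-values adjusted over all 45037 probe sets in each comparison, at a threshold of 0.05. Depth does not apply to arrays; 2 arrays a group limit the precision, and the median SE of a treatment effect was 0.14. The labels name biological duplicates without saying how they were separated. The p-values set each difference against the spread between these duplicate arrays only, taken over all 10 groups.

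Of the probe sets, 34945 had 1 gene symbol, 932 several and 9160 none in the platform annotation, and only those with 1 were named. Genes of the lists and of the likeness search were each represented by the probe set that had the highest mean over all arrays. Members, gene lists and tests were chosen with earlier results of these data known. All 9 members are described with every probe set; from each list up to 3 called genes per time, lowest adjusted p first, are named. The fit was tested on simulated data before use. Replicate numbers were not used to pair the arrays: only 9 of 45 pairs of same-numbered groups had deviations that correlated above 0.1 over all probe sets. This does not exclude an offset shared by replicate number at single probe sets, such as that at Jund's 1449117_at. The 10 alternatives and the removal of each array are compared in the closing section.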

Additional observations from a re-analysis of the deposited data

Results flagged for a closer look

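In 11 cases the treatment effect of a member differed between neighbouring times by a test of the difference itself (limma, adjusted over all probe sets, treated minus untreated at the later time minus the same at the earlier time). From 1 to 3 h the log2 change was -1.85 for Fos, -1.36 for Fosl1 at 1417487_at, -0.86 for Jun at 1417409_at, -0.73 for Jun at 1448694_at, -0.86 for Junb, -0.39 for Atf3 and -0.34 for Maff. From 3 to 6 h it was -0.81 for Junb and -0.45 for Maff. From 6 to 10 h it was -0.93 for Junb and 0.68 for Fosl1 at 1417487_at. Those of Fos, of Fosl1 and Jun's 1417409_at from 1 to 3 h, and of Junb from 1 to 3 h had adjusted p-values of 6.37e-08, 5.41e-06, 2.38e-05 and 0.00506. Groups of 2 arrays were too small to be searched for single arrays standing apart.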

How the results depend on the processing

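Of 54 called member results, 35 kept direction and call under every alternative and every removal of an array. Of 728 recomputed values 652 kept both and 75 kept the direction without the call. The other 1, Fos at 10 h, turned, to 0.38 against the untreated 0 h arrays. That comparator also turned Atf3 at 3 h (0.25), Maff at 6 h (0.67) and Elk4 at 6 h (-0.22); 10 h calls were then 8 of 13 members and 8068 in the table (4018 higher, 4050 lower), and 6531 at 6 h. The cause of the other shifts was not tested.

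With the replicate block (the number treated as a pairing), the table's calls were 1 at 0 h and 35 in untreated cells at 1 h, and 5 untreated members were called at 3 h; Fosb and Jund passed at 1 h (adjusted p = 0.0449 and 0.00514), as did the changes of Jund from 1 to 3 h and Fosl2 from 3 to 6 h, and Fosl1 and Maff in untreated cells at 3 h; the block changed no other member call. The untreated 3 h member count was 5 also with above-median probe sets, 1 probe set per gene, array weights or all 4 arrays at 0 h as the baseline. Untreated 1 h calls in the table, 10 in all, were 23 with further quantile normalization, 21 above the median, 34 with 1 probe set per gene, 1 without variance trend, 0 (2907 unadjusted in the shared fit) with the compared arrays alone and 53 with the 4-array baseline. A single probe set per gene gave 407 calls at 1 h, and 3761 and 4742 in untreated cells at 6 and 10 h, from fewer probe sets tested.

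Without the variance trend, table calls were 1176 at 10 h, 886, 280 and 152 for the changes of effect, and 632 in untreated cells at 3 h, with 0 members for the 3 to 6 h (Junb, Maff) and 6 to 10 h (Junb, Fosl1) changes; the 4-array baseline gave 2373 at 3 h, and the compared arrays alone 1 member for the 6 to 10 h change.

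Leaving out 1 array, member counts ran from 4 to 5 (1 to 3 h change), 1 to 3 (3 to 6 h), 1 to 2 (6 to 10 h), 2 to 3 (effect at 10 h) and 5 to 7 (untreated at 6 h). Table counts ran from 2682 to 2965 at 3 h, 2579 to 3287 at 6 h, 932 to 1267 at 10 h, 378 to 603 and 231 to 319 for the later changes, and 4 to 11, 534 to 773 and 3567 to 4715 in untreated cells at 1, 3 and 6 h.

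The ranges of list counts cover the 10 alternatives and not the removal of arrays. Higher genes at 1, 3, 6 and 10 h ran from 3 to 4, 4 to 5, 3 to 6 and 1 to 3 (bZIP), 1 to 2, 3 to 7, 2 to 6 and 0 to 9 (upstream), and 2 to 6, 6 to 8, 4 to 7 and 2 to 10 (targets). Lower genes ran from 0 to 1, 2 to 4, 2 to 5 and 1 to 3, 0 to 0, 0 to 2, 0 to 3 and 0 to 3, and 0 to 0, 1 to 5, 2 to 3 and 1 to 2 in the same order.

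Signal over background limits Fosb and the second probe sets of Fosl1 and Jund: the first and last lay above the array median on 0 of 20 arrays, and the Fosl1 one on 8.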
